A study of Homo sapiens with 12 samples.

Results

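The core pluripotency factors are proteins that keep stem cells and embryonal carcinoma cells undifferentiated, and 10 of their genes were followed here: POU5F1 (which encodes OCT4), SOX2, NANOG, LIN28A, LIN28B, SALL4, PRDM14, DPPA2, DPPA4 and ZFP42 (REX1). They were taken by gene symbol from the deposited count table, and all 10 were found among its 26641 genes and passed the filter on low counts in every comparison. The data are RNA-seq of NCCIT, an established human embryonal carcinoma line, in which LTR5HS elements were activated or repressed. LTR5HS is a family of long terminal repeats left in the genome by the endogenous retrovirus HERVK.

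Each line carried a catalytically dead Cas9 from S. pyogenes, switched on with doxycycline for 4 days, fused either to the activator VPR (dCas9-VPR, CRISPRa) or to the repressor KRAB (dCas9-KRAB, CRISPRi). It also carried 1 of 3 guide arrays. LTR5HS Sp recruits the fusion to LTR5HS. LTR5HS Sa holds LTR5HS guides in the S. aureus scaffold, which this Cas9 does not use, and nontarget Sp holds guides without a target in the genome. The last 2 arrays together were the control. The 6 lines were sequenced in 2 biological replicates each, so that each fusion had 2 recruitment and 4 control libraries. All arrays of a fusion were put into 1 parental line, so fusion and parental line cannot be told apart, and no NCCIT cells without a fusion were analysed here. Each array of a fusion was itself carried by 1 line, so array and line cannot be told apart either. Library totals ran from 13601701 to 69797411 counts, with a median of 18256928. The deepest library, dCas9-KRAB nontarget replicate 2, stood above the next one, at 24840708.

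In human pluripotent cells OCT4 and SOX2 bind DNA side by side at composite sites and, with NANOG, activate one another and many other genes of the undifferentiated state. LIN28A and LIN28B bind RNA and block maturation of the let-7 microRNAs, which otherwise repress growth genes. SALL4, PRDM14 and ZFP42 are zinc finger proteins of the same network, and DPPA2 and DPPA4 form a pair of chromatin proteins of early embryos.

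The promoter of NANOG holds the letters of such a composite site and is shown because NANOG had the largest difference of the 10 genes between the fusion lines. RefSeq promoters (build GRCh38.p14, 300 bases that end shortly after the gene start) were given for 6 of the 10 genes: SOX2, NANOG, LIN28B, DPPA2, DPPA4 and ZFP42. The NANOG window, chr12:7789152-7789451 on the plus strand, reads as follows, with those letters in capitals.
NANOG: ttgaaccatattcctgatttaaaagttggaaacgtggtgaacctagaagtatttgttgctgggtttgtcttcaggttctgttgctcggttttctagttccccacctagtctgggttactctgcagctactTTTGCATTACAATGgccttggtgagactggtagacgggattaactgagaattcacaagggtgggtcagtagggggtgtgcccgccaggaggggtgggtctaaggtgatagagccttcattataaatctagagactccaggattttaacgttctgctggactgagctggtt
The capitals were searched on both strands with the eighth and the next-to-last base free, and their positions relative to the gene start are -120 to -107. They occurred in 1 of the 6 promoters and in 2 of 11910 promoters of the table (0.0168%). The octamer ATGCAAAT occurred in 0 of the 6 and in 1.36% of all, and the SOX motif AACAAT in 0 of the 6 and in 5.53% of all. A match of letters is not a measured binding site, and a window without one says only that these letters are not in it.

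None of the 10 genes starts within 200 kb of a cluster of sites for the LTR5HS guides. On hg38 the 12 guides matched 2938 sites next to an NGG motif without a mismatch, and sites of at least 2 different guides formed 646 clusters. Sites outside these clusters, sites with mismatches and measured dCas9 binding were not used for the distances. Of 15261 tested genes with a position, 12.7% start within 200 kb of a cluster, and the median distance was 1500 kb. NANOG on chromosome 12 (7787794 to 7799146, plus strand) was the closest member, at 673 kb, followed by LIN28A on chromosome 1 (26410817 to 26429728, plus strand) at 822 kb and POU5F1 on chromosome 6 (31164337 to 31180731, minus strand) at 1490 kb. ZFP42 on chromosome 4 (187995771 to 188005046, plus strand) lay at 1940 kb, SOX2 on chromosome 3 (181711925 to 181714436, plus strand) at 3850 kb and PRDM14 on chromosome 8 (70051651 to 70071693, minus strand) at 3760 kb. The others, DPPA4, DPPA2, LIN28B and SALL4, were 3230 to 8240 kb away. Genes with a cluster at or near their start served as a check of the recruitment labels. PCAT14, a long noncoding RNA whose start lies in a cluster, had 459 and 508 CPM (counts scaled to the size of each library, with TMM factors) with dCas9-VPR recruitment against 2.68 to 9.95 in its controls, and 1.06 and 0 CPM (no count, which allows up to 0.203 CPM) with dCas9-KRAB recruitment against 20.6 to 47.8. CACNA2D2, a calcium channel subunit gene at 16.7 kb, rose 4.19 on the log2 scale with dCas9-VPR (adjusted p = 1.31e-06) and fell by 2.11 with dCas9-KRAB (adjusted p = 7.87e-05), both by edgeR.

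With CRISPRa, SOX2, PRDM14 and ZFP42 fell and no member rose. These 3 of 10 members passed an adjusted p of 0.05 in edgeR's quasi-likelihood test, as did 28.0% of all genes tested (15.7% higher and 12.3% lower). Over the 10 genes the median change was 0.03 on the log2 scale, beside -0.02 over all genes. The share called is therefore close to that of the whole table, and what follows describes the single genes. In bulk RNA, fewer cells of a type and less RNA per cell cannot be told apart.

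**Figure D1:**
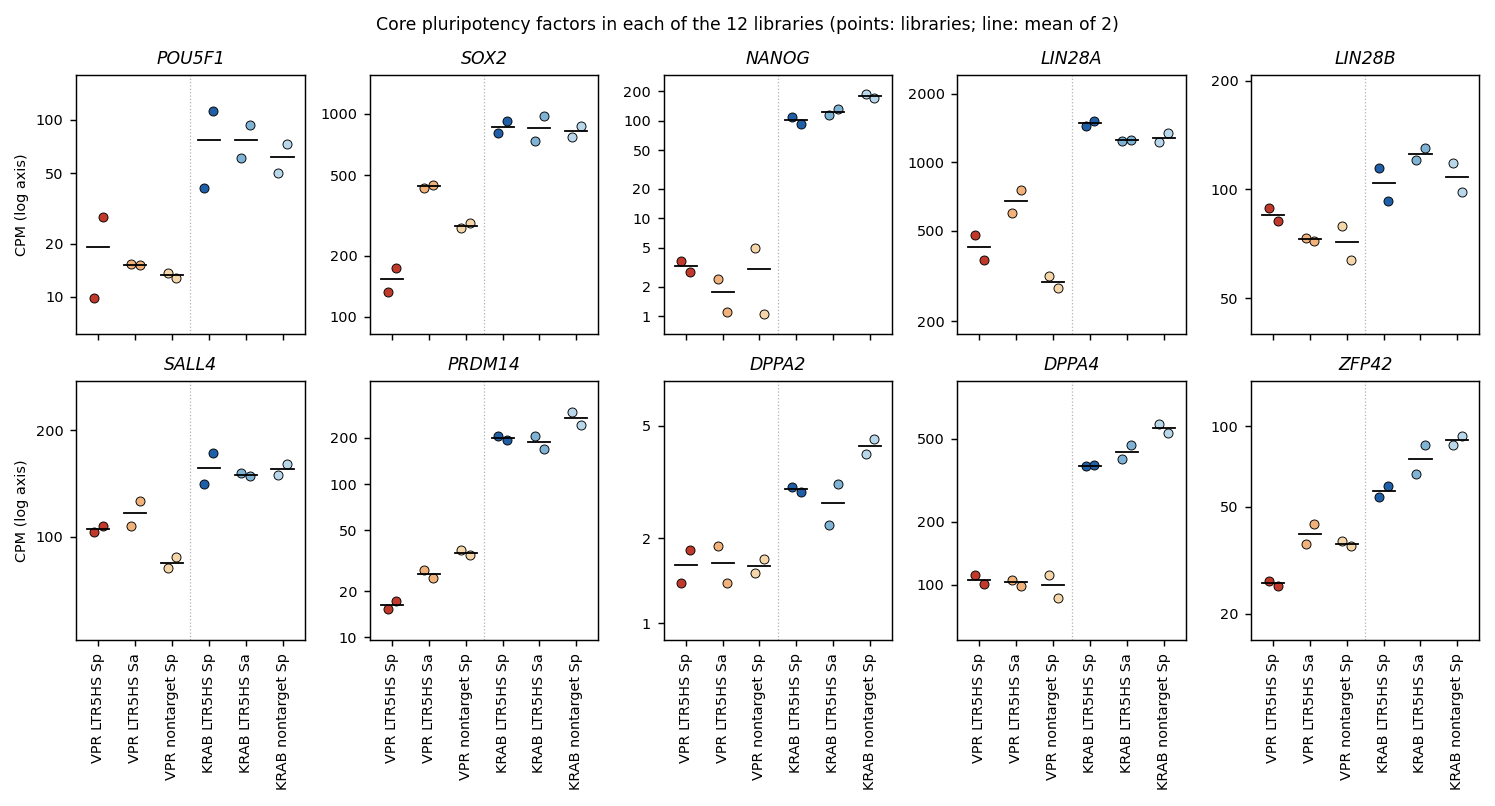
Level of each of the 10 genes in each library, in CPM on a log axis with its own range per panel. Points are libraries, lines are means of 2 replicates, red and orange are the dCas9-VPR lines and blue the dCas9-KRAB lines. SOX2, PRDM14 and ZFP42 are lowest in the VPR LTR5HS Sp line, and every dCas9-VPR library of each gene lies below every dCas9-KRAB library.

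SOX2, the partner of OCT4 on composite sites, changed most. Its recruitment libraries with dCas9-VPR had 132 and 174 CPM. The LTR5HS Sa libraries had 431 and 447 CPM, and the nontarget libraries 274 and 290 CPM. Both recruitment libraries were thus below all 4 controls, and the controls themselves fell into 2 levels by array. SOX2 fell by 1.24 (SE 0.249, adjusted p = 0.00735), or 2.36-fold. The change was -1.53 against LTR5HS Sa alone and -0.87 against nontarget Sp alone, each past the threshold. Without the first recruitment replicate it was -1.04 and no longer passed, and without the second it was -1.46. Each of these fits holds 1 recruitment library, so they cannot settle which library the call rests on. With dCas9-KRAB, SOX2 had 802 and 922 CPM with recruitment, 733 and 976 CPM with LTR5HS Sa and 769 and 872 CPM with nontarget Sp, which overlap (log2 fold change 0.04, SE 0.131, adjusted p = 0.92). The difference between the 2 effects was -1.28 (SE 0.287, adjusted p = 0.00653), and SOX2 was the only member past the threshold of that test, which 21.0% of all genes passed (9.53% in the same direction).

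SOX2-OT, a long noncoding RNA gene whose annotated span on the same strand holds SOX2, fell further. It had 22.7 and 28.6 CPM with dCas9-VPR recruitment, 167 and 184 CPM with LTR5HS Sa and 116 and 128 CPM with nontarget Sp. This is a change of -2.53 (SE 0.236, adjusted p = 0.000137), and as for SOX2 the LTR5HS Sa libraries were the highest of the fusion. Its dCas9-KRAB libraries had 235 and 262 CPM with recruitment and 208 to 228 CPM without (0.19, adjusted p = 0.46). Reads from unspliced SOX2-OT across the SOX2 exon cannot be told from SOX2 reads.

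PRDM14, a zinc finger protein that represses differentiation genes in human pluripotent cells, had 15.3 and 17.4 CPM with dCas9-VPR recruitment. The controls had 27.7 and 24.3 CPM with LTR5HS Sa and 37.0 and 34.3 CPM with nontarget Sp. Recruitment was below every control, with a change of -0.91 (SE 0.192, adjusted p = 0.00899), and here the nontarget controls were the higher ones. With dCas9-KRAB the gene had 206 and 193 CPM with recruitment, 207 and 170 CPM with LTR5HS Sa and 294 and 243 CPM with nontarget Sp, so that recruitment overlapped 1 of the 2 control arrays (-0.19, adjusted p = 0.698). The difference between the fusions' effects on PRDM14 was -0.72 (SE 0.289) and did not pass the threshold (adjusted p = 0.0992).

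ZFP42, a YY1-like zinc finger protein long used as a marker of undifferentiated cells, had changes of similar size with both fusions. With dCas9-VPR it had 26.4 and 25.4 CPM with recruitment, 36.3 and 43.2 CPM with LTR5HS Sa and 37.2 and 35.7 CPM with nontarget Sp. The groups did not overlap (-0.56, SE 0.129, adjusted p = 0.0135). With dCas9-KRAB it had 54.2 and 59.9 CPM with recruitment, 66.0 and 84.7 CPM with LTR5HS Sa and 85.2 and 92.0 CPM with nontarget Sp, again without overlap, but the change of -0.52 (SE 0.144) did not pass (adjusted p = 0.115, edgeR). Against nontarget Sp alone the dCas9-KRAB change was -0.64 and passed (adjusted p = 0.0324). The difference between both effects was -0.03 (SE 0.189, adjusted p = 0.926). Without the first or the second dCas9-VPR recruitment library the change of ZFP42 was -0.58 and -0.54, and neither passed. For PRDM14 it was -0.81, which did not pass, and -1.02. Each of these fits holds 1 recruitment library.

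POU5F1, which encodes OCT4, gave no call, and its recruitment replicates stood far apart. With dCas9-VPR they had 9.85 and 28.3 CPM, on both sides of the controls at 12.8 to 15.3 CPM (0.43, SE 0.346, adjusted p = 0.398). With dCas9-KRAB they had 41.1 and 113 CPM, again on both sides of the controls at 50.0 to 93.6 CPM (0.14, SE 0.348, adjusted p = 0.895). Without the first dCas9-VPR recruitment replicate the change of POU5F1 was 1.00, and without the second it was -0.54, each with 1 recruitment library left.

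Near-identical copies of POU5F1 elsewhere in the genome also took counts, and how reads were split between them is uncertain. POU5F1B, POU5F1P3 and POU5F1P4 together took 19.7 and 20.7 CPM in the dCas9-VPR recruitment libraries and 15.3 to 20.6 CPM in the controls. That is more than POU5F1 itself was given in the first recruitment library and less than in the second. With dCas9-KRAB the copies took 79.4 and 82.5 CPM with recruitment and 94.7 to 119 CPM without. Summing POU5F1 with its copies, a variant that was added once the counts were known, gave a change of 0.30 (SE 0.19, adjusted p = 0.28) with dCas9-VPR and of -0.14 (SE 0.195, adjusted p = 0.794) with dCas9-KRAB. The deposited gene length of POU5F1, 19454 bp, is 6.78 times the exon length in GENCODE 44. A ratio of at least 3 is found for 83.0% of 206 genes in the region of chromosome 6 around it and for 1.59% of other genes, so its level per length is not comparable with that of the other members.

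**Figure D2:**
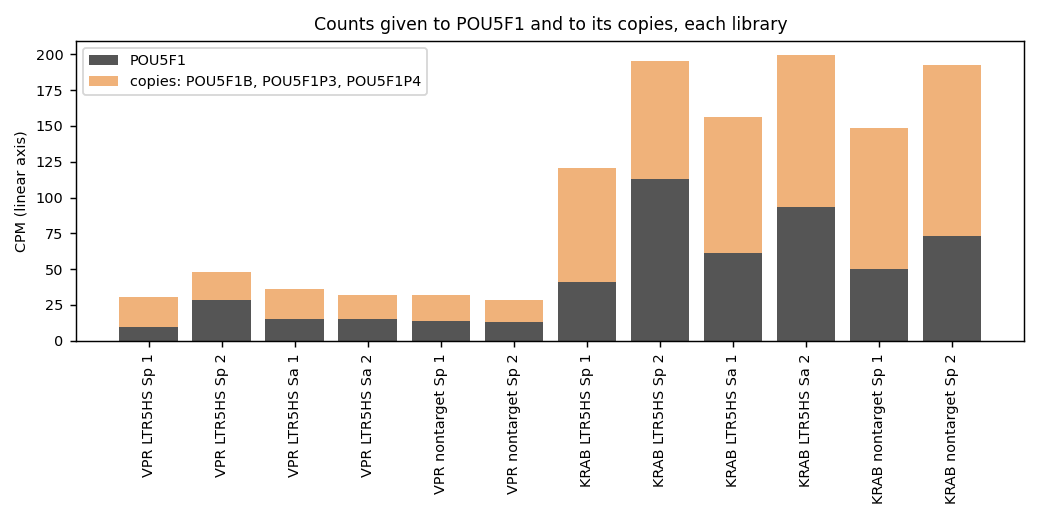
CPM given to POU5F1 (grey) and, stacked on it, to POU5F1B, POU5F1P3 and POU5F1P4 (orange) in each library, on a linear axis from 0. The grey part is 9.85 and 28.3 CPM in the dCas9-VPR recruitment replicates, while the orange part there is 20.7 and 19.7 CPM.

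NANOG, the homeobox partner of OCT4 and SOX2, was near the bottom of its range in all dCas9-VPR libraries. It had 3.62 and 2.83 CPM with recruitment, 2.41 and 1.09 CPM with LTR5HS Sa and 5.0 and 1.05 CPM with nontarget Sp. The control replicates differ more from each other than the arrays do, and the change was 0.44 with an SE of 0.582 (adjusted p = 0.62). In the dCas9-KRAB lines NANOG had 110 and 92.8 CPM with recruitment, 114 and 132 CPM with LTR5HS Sa and 185 and 169 CPM with nontarget Sp. Recruitment was below every control, and the change of -0.56 (SE 0.188) had an adjusted p of 0.203 in edgeR. Against nontarget Sp alone it was -0.80 and passed (adjusted p = 0.0115).

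LIN28A, which blocks let-7 maturation, had 478 and 374 CPM with dCas9-VPR recruitment, between the LTR5HS Sa controls at 599 and 757 CPM and the nontarget controls at 316 and 282 CPM. The pooled change of -0.20 (SE 0.385, adjusted p = 0.737) stands between opposite calls by control: -0.68 against LTR5HS Sa alone (adjusted p = 0.00891) and 0.52 against nontarget Sp alone (adjusted p = 0.0304). With dCas9-KRAB it had 1450 and 1520 CPM with recruitment against 1230 to 1340 CPM, a gap without overlap but of 0.23 only (SE 0.0903, adjusted p = 0.295). LIN28B, its paralog, had 88.7 and 81.7 CPM with dCas9-VPR recruitment, just above controls of 63.7 to 79.2 CPM (0.24, SE 0.112, adjusted p = 0.147). Its dCas9-KRAB libraries, 115 and 93.0 CPM with recruitment and 98.4 to 130 CPM without, overlap (-0.16, SE 0.14, adjusted p = 0.663).

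For SALL4, a zinc finger partner of OCT4 and NANOG, the dCas9-VPR recruitment libraries with 103 and 107 CPM lay among controls of 81.6 to 126 CPM (0.06, SE 0.179). Its dCas9-KRAB recruitment libraries had 141 and 172 CPM, around controls of 148 to 161 CPM (0.04, SE 0.111). DPPA2 was low in every library, with 1.39 to 1.87 CPM with dCas9-VPR and 2.22 to 4.49 CPM with dCas9-KRAB, and recruitment and control overlapped with both fusions (0.00, SE 0.273, and -0.24, SE 0.296). DPPA4, whose gene is its neighbor on chromosome 3, had 111 and 101 CPM with dCas9-VPR recruitment and 86.8 to 112 CPM without (0.07, SE 0.121). With dCas9-KRAB it had 368 and 373 CPM with recruitment, below controls of 399 to 589 CPM, and the change of -0.42 (SE 0.148) had an adjusted p of 0.229 in edgeR. Against nontarget Sp alone it was -0.60 and passed (adjusted p = 0.0240).

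Thus 0 of 10 members passed edgeR's threshold with CRISPRi, where 2.77% of all genes did (0.831% higher and 1.94% lower). At an unadjusted p under 0.05 there were 4 (NANOG, LIN28A, DPPA4 and ZFP42), beside 13.6% of all genes, and DESeq2 called 1 (ZFP42), beside 4.61% of all genes. The median over the 10 genes was -0.18, beside 0.00 over all genes.

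**Figure D3:**
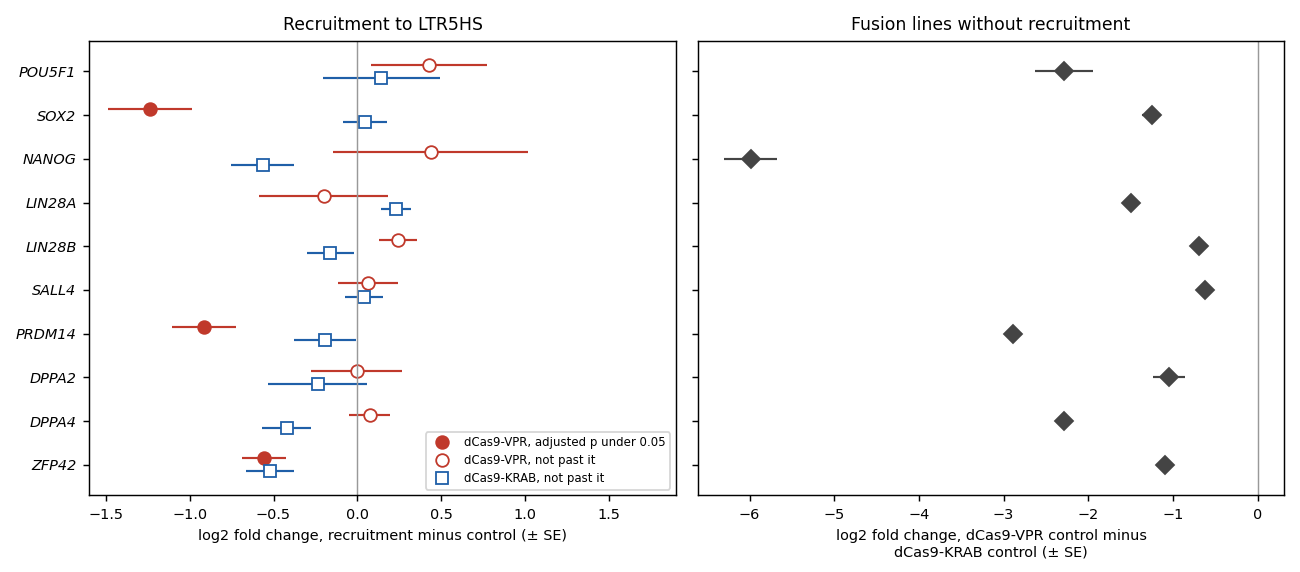
Log2 fold changes of the 10 genes with their SE (edgeR). Left, recruitment minus control with dCas9-VPR (red circles) and dCas9-KRAB (blue squares), filled where the adjusted p is under 0.05: only SOX2, PRDM14 and ZFP42 with dCas9-VPR are filled, all below 0. Right, dCas9-VPR control lines minus dCas9-KRAB control lines: all 10 are filled and lie between -0.62 and -5.99.

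The 2 control arrays were not interchangeable for these genes in the dCas9-VPR lines. LIN28A was 1.18 higher with LTR5HS Sa than with nontarget Sp (SE 0.139, adjusted p = 0.000732) and SOX2 0.64 higher (SE 0.157, adjusted p = 0.035), so that 2 of 10 members passed, beside 5.24% of all genes (2.15% higher and 3.09% lower with LTR5HS Sa). SALL4 was 0.46 higher (adjusted p = 0.0501) and PRDM14 0.46 lower (adjusted p = 0.0882, difference -0.46). The summed level of the 10 genes was 914 to 969 CPM with recruitment, 1400 to 1590 CPM with LTR5HS Sa and 895 to 957 CPM with nontarget Sp. LIN28A and SOX2 make up most of this sum. In the dCas9-KRAB lines 0 of 10 members passed between the control arrays, beside 0.612% of all genes (0.312% higher and 0.300% lower with LTR5HS Sa). There 3 had an unadjusted p under 0.05 by edgeR (PRDM14, DPPA2 and DPPA4), beside 10.5% of all genes, and DESeq2 called 1 (PRDM14), beside 1.22%.

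The largest differences for these genes were between the fusion lines without recruitment. All 10 were lower in the dCas9-VPR controls than in the dCas9-KRAB controls, each past the threshold, where 59.1% of all genes passed (30.3% lower and 28.8% higher). NANOG differed 63.4-fold (-5.99, SE 0.311, adjusted p = 3.86e-08), PRDM14 7.38-fold (-2.88), DPPA4 4.88-fold (-2.29) and POU5F1 4.87-fold (-2.28). LIN28A differed 2.81-fold (-1.49), SOX2 2.38-fold (-1.25), ZFP42 2.14-fold (-1.10) and DPPA2 2.07-fold (-1.05). LIN28B, 1.62-fold (-0.69), and SALL4, 1.54-fold (-0.62), differed least. The median was -1.37, beside -0.02 over all genes. For all 10 genes the highest of the 6 dCas9-VPR libraries was below the lowest of the 6 dCas9-KRAB libraries, as for 16.6% of all tested genes. For LIN28B the margin was small, 88.7 against 93.0 CPM, and for NANOG wide, 5.0 against 92.8 CPM. These control libraries also enter the recruitment comparisons above.

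Per kilobase of the deposited gene length, the order of the members was alike at its top in both fusions. SOX2 and LIN28A led in the dCas9-KRAB controls, at 333 ± 43.5 and 315 ± 12.6 CPM per kilobase (SD, n = 4), with overlapping SDs. Each SD covers the libraries of both control arrays, and genes were not compared within each library. Overlapping SDs therefore do not settle which gene is higher. DPPA4 followed at 176 ± 29.4, then PRDM14 at 97.5 ± 22.6 and NANOG at 71.4 ± 15.4, which overlap within their SDs. SALL4 (43.8 ± 1.71), ZFP42 (30.9 ± 4.2), LIN28B (21.2 ± 2.43) and DPPA2 (2.49 ± 0.721) came after. In the dCas9-VPR controls SOX2 (143 ± 36.4) and LIN28A (121 ± 56.8) again led and overlapped, followed by DPPA4 (35.8 ± 3.8) and SALL4 (28.9 ± 5.74), whose SDs also overlap. ZFP42 (14.4 ± 1.29), PRDM14 (13.2 ± 2.5) and LIN28B (13.1 ± 1.16) had overlapping SDs. NANOG, at 1.14 ± 0.882, stood beside DPPA2, at 1.16 ± 0.154. POU5F1 is left out of the order because of its gene length. The deposited lengths of NANOG, DPPA4 and SALL4 are 0.39, 0.567 and 0.603 times their GENCODE 44 exon length, so their ranks depend on the gene model. Per kilobase of GENCODE exon, an alternative added after the data were seen, the dCas9-KRAB controls had 27.8 ± 6.01 CPM for NANOG and 26.3 ± 1.03 for SALL4. Their SDs overlap each other and that of ZFP42 (30.9 ± 4.19). DPPA4 then lay within the spread of PRDM14 (96.3 ± 22.4), and SOX2 and LIN28A still led. On that length in the dCas9-VPR controls NANOG, at 0.443 ± 0.343, was below DPPA2, at 1.16 ± 0.154. SALL4, at 17.5 ± 3.46, then overlapped ZFP42, at 14.4 ± 1.29.

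Among 40 partners and targets of the core factors, 37 were tested with CRISPRa, and 11 fell and 1 rose (median -0.30), beside 12.3% of all genes lower and 15.7% higher. Against LTR5HS Sa alone 17 fell and 4 rose, beside 34.9% of all genes called in either direction. Fits with 1 dCas9-VPR recruitment library left called fewer of the list lower, and fewer of all genes too. ESRG, a noncoding RNA of human pluripotent cells, fell most. It had 11.4 and 4.06 CPM with dCas9-VPR recruitment and 33.5 to 75.3 CPM in the controls (-2.93, SE 0.465, adjusted p = 0.00234). LEFTY2, a secreted inhibitor of NODAL signaling, fell by 2.65 (adjusted p = 0.000489), ZIC2, a zinc finger factor, by 1.62 (adjusted p = 0.0419) and ZSCAN10, a zinc finger factor of the OCT4 network, by 1.5 (adjusted p = 0.00831). For ZIC2 the controls were 22.9 and 24.0 CPM with LTR5HS Sa and 8.46 and 9.09 CPM with nontarget Sp. L1TD1, an RNA-binding partner of LIN28A derived from a LINE-1 protein, went the other way: it had 255 and 232 CPM with recruitment against 51.7 to 119 CPM (1.62, SE 0.265, adjusted p = 0.00274). With CRISPRi 38 were tested and 1 rose, beside 0.831% of all genes. It was SOX3, a relative of SOX2, at 12.8 and 13.6 CPM with recruitment and 4.83 to 6.67 CPM in the controls (1.23, SE 0.183, adjusted p = 0.00489). Its dCas9-VPR change was 0.42 and did not pass (adjusted p = 0.46). Its dCas9-KRAB call was lost without the second recruitment replicate, a fit with 1 recruitment library left. Against nontarget Sp alone 6 genes of the list fell with CRISPRi, beside 4.05% of all genes called in either direction. In the fusion lines without recruitment 31 of 38 were lower and 5 higher with dCas9-VPR (median -1.73), beside 30.3% of all genes lower and 28.8% higher. ESRG again stood out, at 33.5 to 75.3 CPM against 749 to 1240 CPM.

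For the axis below LIN28, 10 genes of let-7 processing, among them DROSHA and DICER1, gave 0 calls by edgeR with CRISPRa (2 at an unadjusted p under 0.05, beside 39.4% of all genes, and 1 by DESeq2, beside 29.3%) and 0 with CRISPRi (1 unadjusted, 0 by DESeq2). Of 18 let-7 targets, 4 rose and 1 fell with CRISPRa, a share near the 28.0% of all genes called. CCND2, a G1 cyclin, went from 162 to 268 CPM in the controls to 759 and 667 CPM (1.62, SE 0.182, adjusted p = 0.000374). HMGA2, a chromatin architectural protein, had 226 and 242 CPM against at most 160 CPM in the controls (0.85, adjusted p = 0.0172). ARID3B, a DNA-binding protein, rose by 0.57 (adjusted p = 0.0134) and CCND1, another G1 cyclin, by 0.50 (adjusted p = 0.0163), while CDC25A, a cell cycle phosphatase, fell by 0.52 (adjusted p = 0.00861). The median of the 18 was -0.09, and against LTR5HS Sa alone 6 fell, beside 34.9% of all genes called in either direction. With 1 recruitment library left fewer of the 18 rose, and fewer of all genes were called. With CRISPRi 0 of 18 passed in edgeR (2 unadjusted, 0 by DESeq2). Beside both of these lists, the CRISPRi shares over all genes were 2.77% by edgeR, 13.6% unadjusted and 4.61% by DESeq2. MicroRNAs were not measured in these libraries. Of 10 family relatives of the members 2 rose with CRISPRa, beside 15.7% of all genes. SALL3, a paralog of SALL4, had 16.5 and 28.2 CPM with dCas9-VPR recruitment against 1.42 to 3.33 CPM (3.21, SE 0.359, adjusted p = 0.000365), and PRDM1, a relative of PRDM14, rose by 1.16 (adjusted p = 0.0368).

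**Figure D4:**
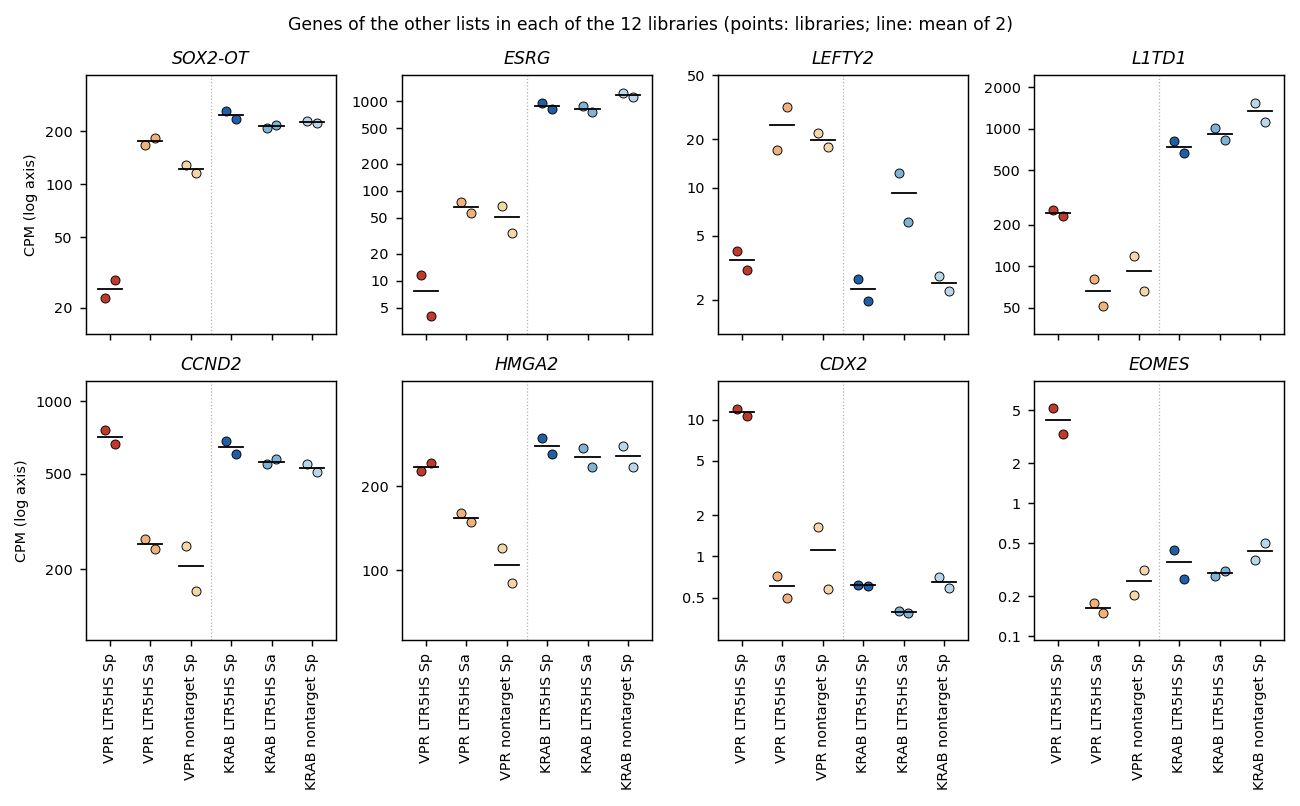
CPM of 8 genes of the other lists in each library, on a log axis with its own range per panel, with symbols as in the plot of the 10 factors. In the VPR LTR5HS Sp line SOX2-OT, ESRG and LEFTY2 lie below both VPR control lines, and L1TD1, CCND2, HMGA2, CDX2 and EOMES lie above them.

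Genes of differentiated cell types moved with CRISPRa too, and their part in the fall of SOX2, PRDM14 and ZFP42 was not tested. Of 8 trophoblast and amnion markers 6 were tested and 3 rose, beside 15.7% of all genes. CDX2 went from 0.497 to 1.65 CPM in the controls to 12 and 10.7 CPM (3.72, adjusted p = 0.000252), GATA2 from 13.2 to 17.9 CPM to 53.0 and 52.2 CPM (1.76, adjusted p = 0.000103), and GATA3 rose by 1.48 (adjusted p = 0.00617). TFAP2A had 105 and 109 CPM with recruitment, near the low end of controls that ran from 107 to 337 CPM (-0.97, adjusted p = 0.0956). The summed level of the 8 was nevertheless 375 to 427 CPM with recruitment and 388 to 509 CPM in the controls, since HAND1, at 146 to 279 CPM in the dCas9-VPR lines, and TFAP2A make up most of it. With CRISPRi GATA3 rose by 1.47 (adjusted p = 0.0259) and TFAP2A by 1.07 (adjusted p = 0.00406), and the sum was 330 to 382 CPM against 139 to 211 CPM. Neither call held without the first dCas9-KRAB recruitment replicate, a fit with 1 recruitment library left. Over all genes 0.831% rose with CRISPRi. The difference between the fusions' effects on TFAP2A was -2.04 (adjusted p = 0.00558). CGA, a placental hormone subunit, had at most 1 count in any library.

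Of 8 mesendoderm markers 5 were tested with CRISPRa and 2 rose, beside 15.7% of all genes. EOMES, a T-box factor of early mesendoderm, had 5.18 and 3.31 CPM with recruitment and 0.149 to 0.315 CPM in the controls (4.29, adjusted p = 6.22e-05), and GATA6, an endoderm factor, 3.56 and 3.42 CPM against 1.31 to 1.52 CPM (1.29, adjusted p = 0.00318). FOXA2, an endoderm factor with at most 16 counts in any library, had a change of -1.19 that did not pass (adjusted p = 0.17), while the difference between the fusions' effects on it was -2.59 (adjusted p = 0.0468). The sum of the 8 was 18.5 to 21.5 CPM against 8.83 to 11.1 CPM. The defining markers T and SOX17 stayed at no more than 2 and 7 counts in any library. Of 7 neural markers 5 were tested, with LHX2 higher (1.56, adjusted p = 0.00157) and TUBB3 lower (-0.70, adjusted p = 0.0344), beside 15.7% of all genes higher and 12.3% lower. The neural sum was 180 to 185 CPM with recruitment, within the 174 to 275 CPM of the controls, and NEUROD1 had at most 1 count in any library.

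Of 8 seminoma and germ cell markers 5 were tested with CRISPRa. Besides PRDM1 only PDPN, a surface glycoprotein, passed (-1.35, adjusted p = 0.000139), where 28.0% of all genes did. The sum of the 8 was 92.7 to 97.4 CPM against 170 to 193 CPM. It does not describe each marker: TFAP2C changed by -0.01, KIT by -0.20 and DAZL by -3.57, none past the threshold in edgeR. DDX4 and NANOS3 had at most 5 and 6 counts. Of 6 yolk sac markers 1 was tested with CRISPRa and not called, and their sum stayed at or under 5.34 CPM in every library. The 8 embryonal carcinoma markers include the members POU5F1, SOX2, NANOG and LIN28A, so their count and sum are not separate from the results above. All 8 were present in the lines of both fusions, though NANOG reached at most 5 CPM in the dCas9-VPR libraries. In the dCas9-VPR controls 8 of 8 were lower than in the dCas9-KRAB controls, beside 30.3% of all genes. Their sum was 875 to 1450 CPM in the former and 3540 to 4220 CPM in the latter. The mesendoderm sum differed in the other direction, 8.83 to 11.1 CPM with dCas9-VPR and 3.03 to 5.0 CPM with dCas9-KRAB, and HAND1 was at 146 to 279 CPM against 4.19 to 15.5 CPM. Whether the markers that are not members bear on the lower factors of the dCas9-VPR lines was not tested.

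**Figure D5:**
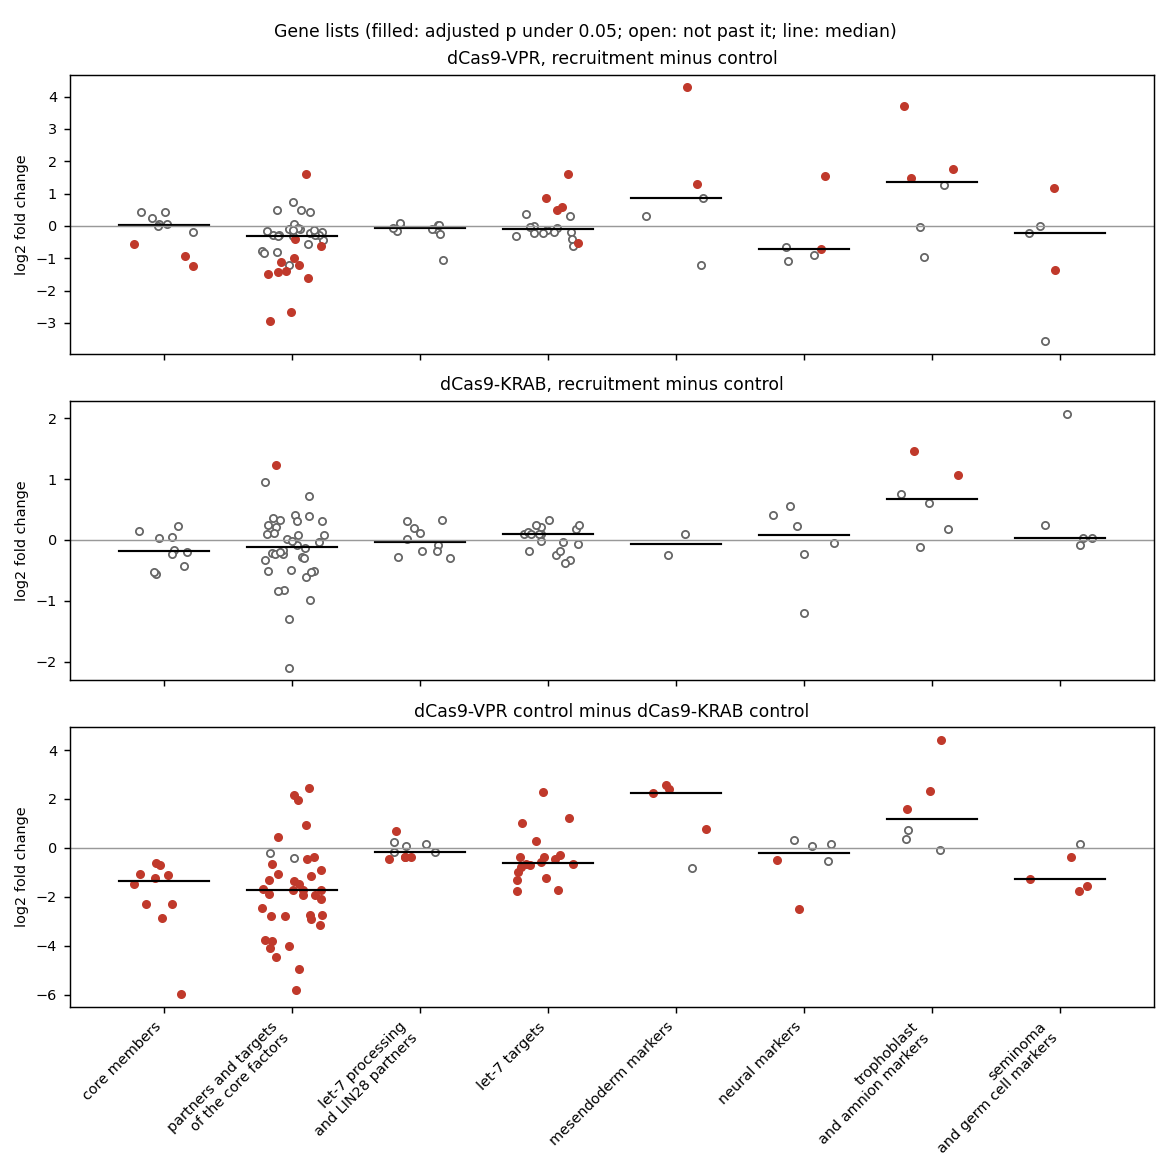
Log2 fold change of each tested gene of 8 lists (points), filled red where the adjusted p is under 0.05 by edgeR, with the list median as a line. Top, dCas9-VPR recruitment; middle, dCas9-KRAB recruitment; bottom, dCas9-VPR controls minus dCas9-KRAB controls. In the bottom panel the members (median -1.37) and their partners and targets (median -1.73) lie mostly below 0.

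For each member called with either fusion, the 3 tested genes with the most alike pattern were found by Pearson's r of log2 CPM over the 12 libraries. These libraries come from 2 parental lines that differ in most genes, so high values are common and are given as a description. SOX2 was most like GPC2 (0.991), CENPV (0.989) and SLC4A11 (0.989). PRDM14 was most like PTPRZ1 (0.994), TERF1 (0.993), which is on the list of partners and targets, and TNPO3 (0.991). ZFP42 was most like PTCD3 (0.979), JAKMIP2 (0.976) and PCCA (0.975).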

How the data were processed

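RNA-seq of 12 libraries (2 fusions, 3 guide arrays, 2 replicates) was analysed. Per the labels, poly(A) RNA was made into cDNA with random primers and no step that marks strand. The submitters' processing notes name CASAVA 1.8, cutadapt 1.8.1, HISAT2 2.1.0, featureCounts 1.4.6-p2 and hg38, and the gene annotation is not given in the sources used here. The authors deposited raw counts per gene without normalization, with the gene length in bp beside them. A total of 28 gene names read as dates and were not named.

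Genes were tested with edgeR 4.0.16 (R 4.3.3): filterByExpr, TMM, quasi-likelihood F-test and Benjamini-Hochberg adjustment over all genes tested, threshold 0.05. Recruitment and control were fitted within each fusion, and the other contrasts in fits of all 12 libraries. DESeq2 1.42.0 was an alternative. CPM use TMM library sizes. The scripts were tested on simulated data. The study describes the replicates as independent biological ones, and intervals of spread rest on 2 libraries a line. The difference between fusions, other filters, scalings, single control arrays and left-out libraries were also fitted.

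Named genes were the 10 members, up to 5 called genes a list and fusion, ordered by size of change, markers near 0, and 3 most similar genes for each called member. The members and lists were chosen with earlier results of these data known, and 1 listed gene is not reported here. Gene positions are from GENCODE 44 and guides from the study's list of designed sequences.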

Additional observations from a re-analysis of the deposited data

Results flagged for a closer look

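The change of SOX2 between recruitment and control lines differed between the fusions by a test of the difference itself, which 21.0% of all genes passed. The change with dCas9-VPR minus that with dCas9-KRAB was -1.28 on the log2 scale (SE 0.287, edgeR adjusted p = 0.00653). Both dCas9-VPR recruitment libraries were below all 4 of their controls, while with dCas9-KRAB recruitment and control overlapped. Each array of a fusion was 1 line, so recruitment cannot be told from a difference between lines. Between the dCas9-VPR control lines SOX2 differed by 0.64 (SE 0.157, edgeR adjusted p = 0.035).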

How the results depend on the processing

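Limits come first. Each line had 2 libraries, so a change had to be large against the spread of 2 values, and low genes such as DPPA2 and NANOG with dCas9-VPR were imprecise. The lower level of all 10 genes in the dCas9-VPR controls kept its direction and its call under every alternative run. With CRISPRa, 3 members were lower, where 28.0% of all genes were called in either direction. At a threshold of 0.01 there were 2, beside 15.5% of all genes. With single control libraries left out the same 3 were lower, beside 23.2% to 28.6% of all genes. Without the first or the second recruitment library the change was -1.04 and -1.46 for SOX2, and -0.81 and -1.02 for PRDM14. For ZFP42 it was -0.58 and -0.54. These fits hold 1 recruitment library, and not all of the 3 members passed in them. No member was higher with CRISPRa when a single control library was left out. Against nontarget Sp alone 1 was higher (LIN28A), beside 29.9% of all genes called in either direction. Members lower with CRISPRi were 0, where 2.77% of all genes were called in either direction. They were 1 with DESeq2 (4.61% of all genes), 1 with all 12 libraries in one fit (4.43%) and 3 against nontarget Sp alone (4.05%). With single control libraries left out they were 0 to 1 (1.85% to 2.88%). For the difference between fusions, leaving out single control libraries gave 0 to 1 higher and 1 to 2 lower, beside 17.8% to 21.3% of all genes. Between the dCas9-VPR control arrays 2 were higher (5.24% of all genes called in either direction) and 1 at a threshold of 0.01 (2.02%). There 0 were lower, and 1 with DESeq2 (6.94%). When a library outside these arrays was left out, 2 to 3 were called (4.56% to 5.53%). Between the dCas9-KRAB control arrays 0 were lower (0.612% of all genes called in either direction), 1 with DESeq2 (1.22%) and 1 without the filter on low counts (1.13%). The cause of these shifts was not tested.

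Same-numbered libraries of 2 arrays deviated together, with r from 0.0542 to 0.467 and from 0.195 within a fusion. This is a hint from the data that numbers mark something shared, but the labels do not say so and each line has only 2 replicates, so the fits above carry no block. With the replicate number as a block, members called were 3 lower for CRISPRa, 0 for CRISPRi, 1 lower for the difference and 10 lower between fusions, as without it, while 3 higher and 1 lower were called between the dCas9-VPR control arrays and 1 lower between those of dCas9-KRAB. Over all genes the block raised the share called from 5.24% to 13.6% and from 0.612% to 4.71% in those 2 comparisons. Under the block it was 30.5% for CRISPRa, 3.27% for CRISPRi, 24.3% for the difference and 66.9% between fusions.

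Some changes that never passed the threshold without an alternative changed sign. With CRISPRa, DPPA2 (0.00) became 0.01 at 10 counts in every library, 0.01 after thinning all libraries to the lowest total and 0.02 against nontarget Sp alone, SALL4 (0.06) -0.16 against LTR5HS Sa alone, and LIN28A (-0.20) 0.52 against nontarget Sp alone. With CRISPRi against LTR5HS Sa alone POU5F1 became -0.01, PRDM14 0.08 and DPPA2 0.17, and POU5F1 with its copies -0.14. For the difference between fusions ZFP42 became 0.04 after thinning. With single libraries left out, CRISPRa changes ran from -0.22 to 0.18 for DPPA2, -0.03 to 0.19 for SALL4, -0.39 to 0.09 for LIN28A and -0.54 to 1.00 for POU5F1. CRISPRi changes ran from -0.76 to 0.70 for POU5F1, -0.06 to 0.14 for SOX2 and -0.12 to 0.17 for SALL4. The differences between fusions ran from -0.12 to 0.06 for ZFP42, -0.13 to 0.17 for SALL4 and -0.68 to 1.18 for POU5F1. Between the dCas9-VPR control arrays they ran from -0.19 to 0.23 for DPPA2, -1.49 to 0.75 for NANOG, -0.01 to 0.24 for ZFP42, -0.12 to 0.19 for LIN28B and -0.12 to 0.24 for DPPA4. Between those of dCas9-KRAB they ran from -0.16 to 0.25 for SOX2, -0.01 to 0.63 for POU5F1, -0.10 to 0.03 for LIN28A and -0.11 to 0.00 for SALL4.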
